A study of Mus musculus with 2207 samples.

Results

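The potassium channel genes are the rows of both expression tables whose symbol begins with Kcn, followed by a family letter (a, b, c, d, e, f, g, h, j, k, ma, mb, n, q, s, t, u or v) and a number. The rule found 86 members among the 52636 genes of the tables, all protein coding, and it used symbols only, no measured value. A further 4 antisense or opposite-strand transcripts that share such a symbol were left out. The data are single-nucleus total RNA profiles (RamDA-seq) of 2207 nuclei from the cerebral cortex of male C57BL/6 mice (labels; C57BL6/J background in the methods) aged 14 weeks, made to study Ehmt1 haploinsufficiency, a model of Kleefstra syndrome, and its rescue by GLP, the histone methyltransferase that Ehmt1 encodes.

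Nuclei came in 6 pools, with 3 mice per genotype, and no label ties a nucleus to 1 mouse. Plates of 96 wells held a wild type pool (Ehmt1+/+, WT_96) and an Ehmt1delta/+ pool (Het_96). Plates of 384 wells held 4 pools, all of which carried the Ehmt1 iTg allele, a Cre-inducible FLAG-Ehmt1 transgene. WT_384 (Ehmt1+/+) and Het_384 (Ehmt1delta/+) lacked CamKII-CreER according to their labels, and iTg_384 (Ehmt1+/+) and HetiTg_384 (Ehmt1delta/+) carried it. A figure legend of the study can also be read as giving CamKII-CreER to all of these genotypes; the labels were followed. CamKII-CreER gives tamoxifen-dependent Cre in postnatal forebrain neurons, so that recombination is directed to neurons and not to glia. Tamoxifen is listed at 3 weeks of age at 100 mg/kg, 2 times, for nuclei of 96-well plates as well. The methods of the study give a 1-week interval between the 2 doses. All WT_384 nuclei carry 1 code in their names and all other 384-well nuclei carry another, no label says what the code stands for, and WT_384 and its code cannot be told apart.

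Potassium channels set the resting potential of a cell and end its action potentials. Voltage-gated subunits (Kcna to Kcnd, Kcnf to Kcnh, Kcnq, Kcns and Kcnv) open on depolarization or modify channels that do, inward rectifiers (Kcnj) and two-pore channels (Kcnk) hold the resting potential, and the Kcnma1, Kcnn and Kcnt channels open with intracellular calcium or sodium. In the cortex, fast Kv3 channels (Kcnc1 and Kcnc2) are known for short spikes of fast-spiking interneurons, and Kcnj10 is known for potassium uptake by glia.

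The submitted labels split the nuclei into neurons (1664 in all), oligodendrocytes (46 to 73 per pool) and microglia (16 to 36 per pool). The summed level of 5 microglial markers was 1434 to 2445 RPKM in microglia and at most 3.82 RPKM in neurons, and that of 5 oligodendrocyte markers was 2553 to 4009 RPKM in oligodendrocytes and at most 13.5 RPKM in neurons. Median reads per neuron were 323273 to 397880 in all pools, whereas median reads per glial nucleus were 441701 to 510640 on 96-well plates and 39940 to 54877 on 384-well plates. The 3 neuronal markers summed to 50.8 RPKM in oligodendrocytes and 60.3 RPKM in microglia of WT_96, and to at most 13.8 RPKM in glia of the other pools. The 3 oligodendrocyte precursor markers summed to 7.76 RPKM in neurons of Het_96 and to 1.10 to 2.04 RPKM in neurons of the other pools. Ehmt1, the targeted gene, had 18.7, 19.5 and 20.7 RPKM in neurons of WT_96, WT_384 and iTg_384 and 31.2, 31.7 and 33.9 RPKM in neurons of Het_96, Het_384 and HetiTg_384. The gene-level value was thus higher in every pool labelled Ehmt1delta/+. It does not separate the deleted part from the rest of the gene, and which part gave the reads was not tested.

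The upstream 250 bases of 4 members are shown because these members had the largest differences in each direction between excitatory and inhibitory neurons among members listed in the RefSeq promoter table (GRCm38.p6, 62 of 86 members matched). Capitals mark GGGCGG on either strand, the GC box. Kcnmb2 (chr3:31902453-31902702, plus strand) and Kcns3 (chr12:11150843-11151092, minus strand) were higher in inhibitory neurons, and Kcnk4 (chr19:6934516-6934765, minus strand) and Kcns1 (chr2:164171114-164171363, minus strand) were higher in excitatory neurons. Each window lies upstream of a RefSeq start, and of the 2 starts listed for Kcns3 the first is shown. The gene annotation starts Kcnmb2 at 31902507 and Kcns3 at 11151056, so these windows lie mostly inside the annotated genes.
Kcnmb2: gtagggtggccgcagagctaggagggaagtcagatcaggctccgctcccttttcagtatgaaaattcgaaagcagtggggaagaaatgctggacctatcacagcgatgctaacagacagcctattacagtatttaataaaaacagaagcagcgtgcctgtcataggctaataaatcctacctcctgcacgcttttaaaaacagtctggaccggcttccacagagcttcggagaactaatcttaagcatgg
Kcns3: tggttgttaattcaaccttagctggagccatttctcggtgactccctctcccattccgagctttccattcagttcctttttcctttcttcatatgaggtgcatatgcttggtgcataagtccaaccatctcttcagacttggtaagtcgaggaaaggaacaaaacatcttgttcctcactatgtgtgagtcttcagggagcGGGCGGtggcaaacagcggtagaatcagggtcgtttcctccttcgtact
Kcnk4: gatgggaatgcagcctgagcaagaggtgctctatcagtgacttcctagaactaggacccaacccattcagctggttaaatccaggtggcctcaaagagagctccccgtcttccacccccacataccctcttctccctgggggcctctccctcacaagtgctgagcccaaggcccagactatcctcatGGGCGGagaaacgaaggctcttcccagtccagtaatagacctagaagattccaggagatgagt
Kcns1: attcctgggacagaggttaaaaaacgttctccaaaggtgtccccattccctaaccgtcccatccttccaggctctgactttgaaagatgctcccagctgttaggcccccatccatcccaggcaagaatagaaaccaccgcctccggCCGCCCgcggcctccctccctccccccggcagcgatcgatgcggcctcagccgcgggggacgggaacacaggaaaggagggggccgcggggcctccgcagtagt
GGGCGG was found once in Kcns3, Kcnk4 and Kcns1 and was not among the letters of the Kcnmb2 window. It was present in 47.4% of the 78 listed member promoters and in 32.7% of all 32851 promoters of the same length. Of the other motifs searched on both strands, CCAAT was present in 26.9% of member promoters and 33.8% of all, TATAAA in 3.85% and 12.4%, CACGTG in 5.13% and 6.02%, and TGACGTCA in 0 and 1.55%. The 4 printed windows hold none of these other motifs, and a match or its absence describes the letters of the window only.

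In neurons, 65 of the 86 members were above 0 in at least 10% of nuclei, 30 members had a mean level of 10 RPKM or more over the 6 pools, and 10 were under 0.1 RPKM. RPKM is a level per transcript length, so levels can be set side by side between genes. Voltage-gated genes held 55.8% of the summed member level in neurons, two-pore genes 14.7%, the Kcnt and Kcnu genes 12.2% and inward rectifiers 10.5%. The 5 Kcne auxiliary genes summed to 0.342 ± 0.0812 RPKM (SD, n = 6 pools), led by Kcne2 at 0.145 RPKM and Kcne3 at 0.120 RPKM.

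**Figure D1:**
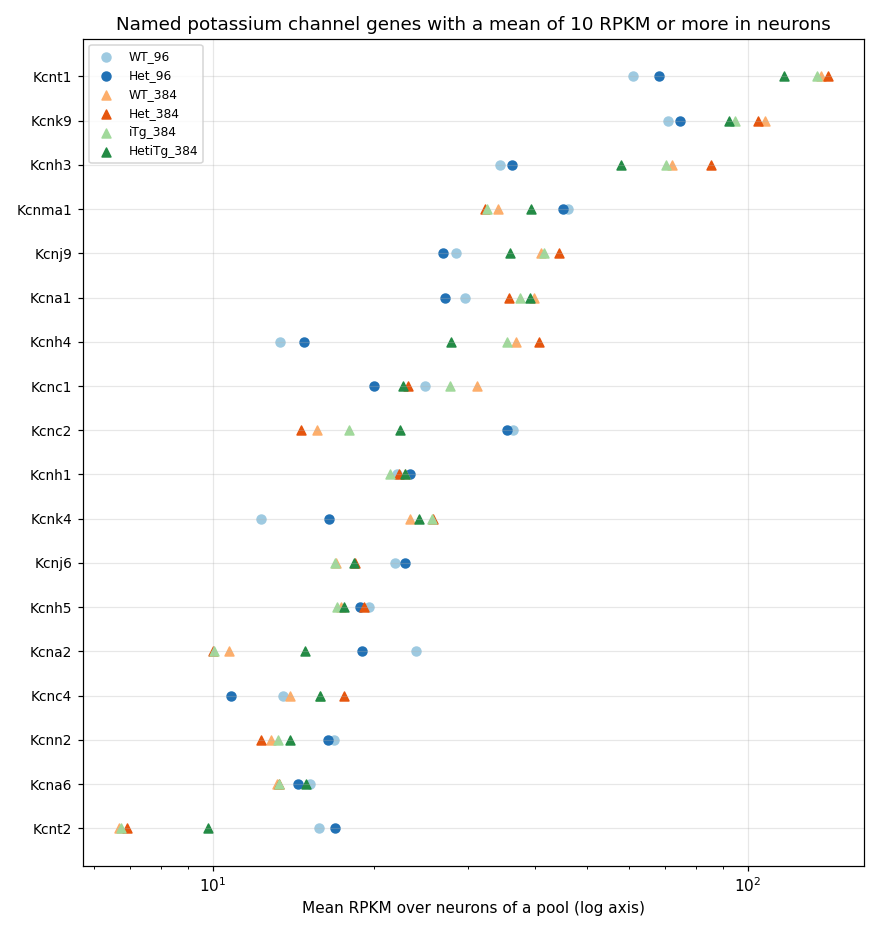
Mean RPKM over the neurons of each pool (log axis) for the potassium channel genes named in the text that had a mean of 10 RPKM or more, with circles for 96-well and triangles for 384-well pools. Kcnt1 and Kcnk9 lead, and for many genes, such as Kcnt1 and Kcnh4, both circles lie to one side of all triangles.

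Kcnt1, a sodium-activated channel, had the highest mean level, 110 ± 36.1 RPKM (SD, n = 6 pools), with 60.9 RPKM in WT_96, 68.2 in Het_96, 137.02 in WT_384, 141.2 in Het_384, 134.9 in iTg_384 and 116.8 in HetiTg_384. Both 96-well pools were below all 384-well pools. The two-pore leak channel Kcnk9 (TASK-3) had 90.9 ± 15.2 RPKM and Kcnk4 (TRAAK) 21.4 ± 5.61 RPKM. Among voltage-gated genes, Kcnh3 (Kv12.2) had 59.4 ± 20.6 RPKM.

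Kcnma1, the pore of the large-conductance calcium-activated (BK) channel, had 38.2 ± 6.27 RPKM, and its beta subunits Kcnmb4 and Kcnmb2 had 5.32 ± 1.05 and 1.12 ± 0.544 RPKM. The G-protein-gated inward rectifiers Kcnj9 (GIRK3) and Kcnj6 (GIRK2) had 36.4 ± 7.27 and 19.3 ± 2.53 RPKM. The small-conductance channels Kcnn2 and Kcnn1 had 14.3 ± 1.91 and 2.86 ± 0.976 RPKM. Kcnt2 had 10.5 ± 4.73 RPKM and was higher in both 96-well pools (15.8 and 16.9 RPKM) than in any 384-well pool (6.67 to 9.78 RPKM), the opposite order to Kcnt1.

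Plate format went with the level of many members. Of the 65 members tested, 21 were lower in both 96-well pools than in every 384-well pool, where 23.4% of all 24420 genes tested were, and 17 were higher, where 45.2% of all genes were. Comparisons were therefore made within pools or within plate formats. All exons of Kcnj13 lie inside Gigyf2 on the opposite strand, 66.8% of Kcnh1 exon bases lie inside Hhat on the opposite strand, and 31.7% of Kcnk4 exon bases lie inside Catsperz on the same strand, and reads were counted with the defaults of featureCounts, which do not use strand, so reads of these pairs may not be separable.

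Neurons were then split by 3 excitatory markers (Slc17a7 and Neurod2 among them) and 3 inhibitory markers (Gad1, Gad2 and Slc32a1), which were not tested, into 1312 excitatory nuclei in all and 42 to 71 inhibitory nuclei per pool. Excitatory neurons had more of 30 of the 66 members tested, and inhibitory neurons more of 16. Over all 24428 genes tested, 19.5% were higher and 21.6% were lower in excitatory neurons, and 41.2% differed in either direction. The excitatory markers summed to at most 5.51 RPKM in inhibitory neurons and the inhibitory markers to at most 4.10 RPKM in excitatory neurons. By family, 17 voltage-gated genes were higher and 11 lower in excitatory neurons of 35 tested, 5 and 2 of 12 two-pore genes, and 4 and 1 of 9 inward rectifiers. The median log2 difference was 0.28 over the members and -0.02 over all genes. These calls come from limma on log2(pool mean RPKM + 0.1) with the pool as a term and Benjamini-Hochberg adjusted p under 0.05, and fold changes on this scale understate the change of low genes. The filter takes the mean share of nuclei above 0 over both classes, so a member under 10% in 1 class passed only through the class where it was high and had to differ. This holds for 1 of the 30 (Kcnk6) and 2 of the 16 (Kcnmb2 and Kcnj14), whose differences are given as descriptions with no test, and it leaves 29 and 14 of 63 members. In the family counts above, Kcnk6 is 1 of the 5 two-pore genes higher, and Kcnj14 is the 1 inward rectifier lower. Neither is read as a test. Members of this kind in the class comparisons that follow are treated in the same way.

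**Figure D2:**
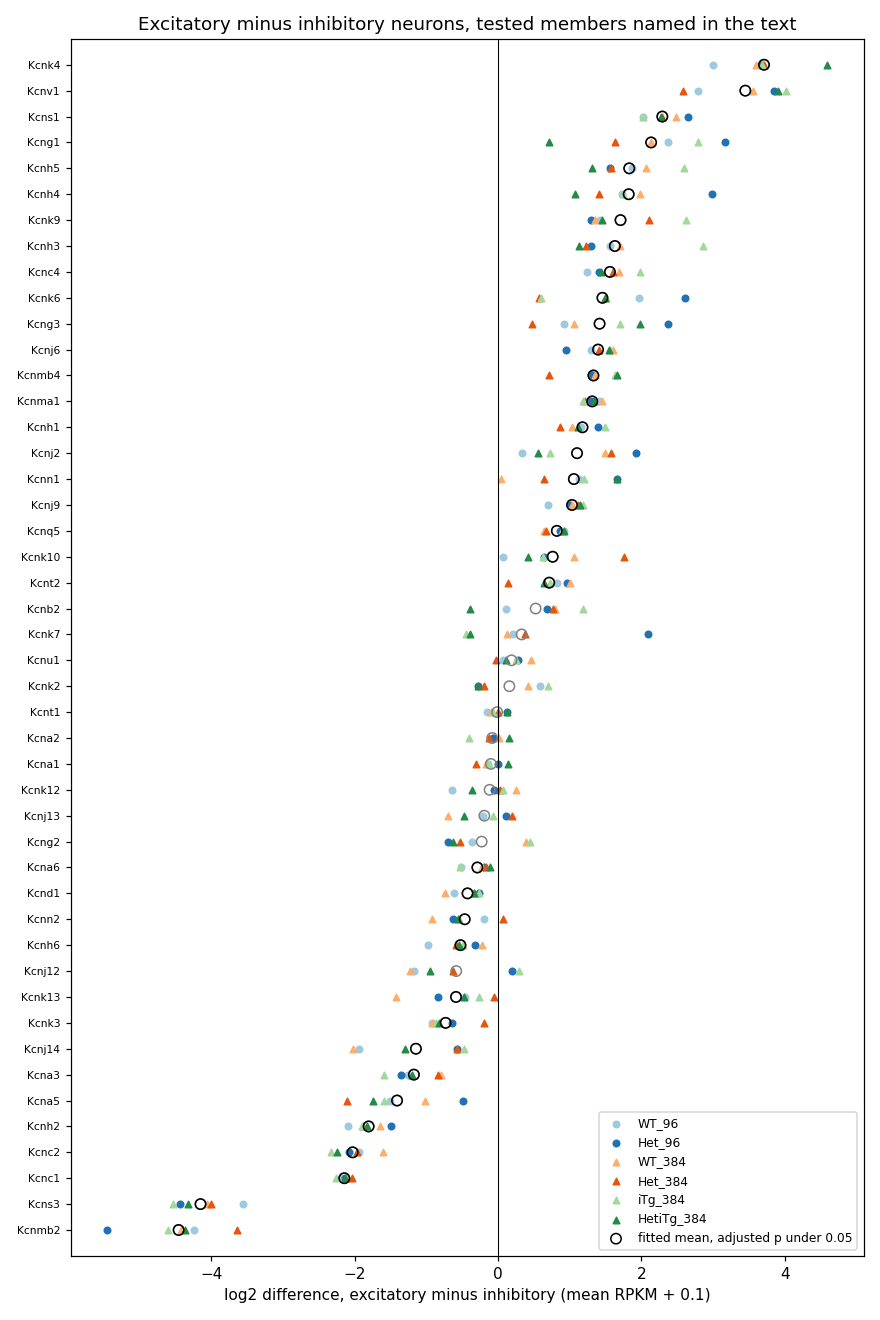
Excitatory minus inhibitory log2 difference in each of the 6 pools (coloured points) and the fitted mean (open circles, black where adjusted p was under 0.05) for the tested members named in the text. Kcnk4 and Kcnv1 lie at the top and Kcns3 and Kcnmb2 at the bottom, with all 6 pools on 1 side of 0 for each. The marks of Kcnmb2, Kcnj14 and Kcnk6, which passed the filter through 1 class only, are not read as tests.

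Kcnk4, a mechanosensitive two-pore channel, had 16, 19.7, 31.1, 30.8, 31.7 and 29.4 RPKM in excitatory neurons of WT_96, Het_96, WT_384, Het_384, iTg_384 and HetiTg_384, and 1.92, 1.44, 2.48, 2.26, 2.39 and 1.12 RPKM in inhibitory neurons of the same pools. The classes did not overlap, and the log2 difference was 3.71 ± 0.18 (SE, limma adjusted p = 1.4e-05). Kcnv1, a silent subunit that modifies Kv2 channels, had 8.96 to 15.7 RPKM in excitatory and 0.461 to 2.07 RPKM in inhibitory neurons, a log2 difference of 3.45 ± 0.22 (limma adjusted p = 3.53e-05). The silent subunits Kcns1 and Kcng1 were also higher in excitatory neurons, by 2.29 ± 0.10 and 2.13 ± 0.31 on the log2 scale.

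Of the 7 Kcnh (ether-a-go-go type) genes tested, 5 were higher in excitatory neurons and 2, Kcnh2 and Kcnh6, were higher in inhibitory neurons. Over all 66 members tested these counts were 30 and 16, and the shares of all genes are given above. Kcnh5 differed by 1.83 ± 0.17, Kcnh4 by 1.82 ± 0.23 and Kcnh3 by 1.63 ± 0.23 on the log2 scale. Kcnk9 had 83 to 127.6 RPKM in excitatory and 18.2 to 50.1 RPKM in inhibitory neurons, a log2 difference of 1.71 ± 0.19. Kcnc4 differed by 1.56 ± 0.11, in the opposite direction to Kcnc1 and Kcnc2.

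Kcnmb2, a BK beta subunit that inactivates the channel, had 7.18, 10.05, 3.30, 3.28, 3.40 and 4.18 RPKM in inhibitory neurons of WT_96, Het_96, WT_384, Het_384, iTg_384 and HetiTg_384, and 0.0441 to 0.284 RPKM in excitatory neurons. It was above 0 in 4.16% of excitatory and 61.3% of inhibitory nuclei (mean over pools). Inhibitory neurons had more in all 6 pools, with an excitatory minus inhibitory log2 difference of -4.46 ± 0.21, a description with no test. The BK pore gene Kcnma1 and the other main beta subunit, Kcnmb4, differed in the opposite direction, by 1.31 ± 0.07 and 1.33 ± 0.13.

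Kcns3, a silent subunit, had 12.8 to 23.3 RPKM in inhibitory and 0.615 to 1.12 RPKM in excitatory neurons, a log2 difference of -4.15 ± 0.13 (limma adjusted p = 4.23e-06). The Kv3 genes Kcnc1 and Kcnc2 had 57.5 to 76.6 and 31.9 to 99.8 RPKM in inhibitory neurons against 13 to 17 and 9.73 to 23.5 RPKM in excitatory neurons. Their log2 differences were -2.14 ± 0.06 and -2.03 ± 0.10, and the classes did not overlap for either gene. Kcnh2 (-1.81 ± 0.09), Kcna5 (-1.41 ± 0.20), Kcna3 (-1.17 ± 0.12) and Kcnk3 (-0.73 ± 0.11) were also higher in inhibitory neurons. Kcnj14 had 0.174 RPKM in excitatory and 0.523 RPKM in inhibitory neurons, and Kcnk6 had 0.509 and 0.134 RPKM, both with no test.

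Kcnt1, the most abundant member, did not pass the test between the classes, with a log2 difference of -0.01 ± 0.07. Channel partners listed beside the members were accessory subunits of Kv and BK channels, sulfonylurea receptors and Hcn channels. Of 22 tested, 7 were higher in excitatory and 11 in inhibitory neurons, beside the shares of all genes given above for this comparison. Kcnip1, a calcium-binding subunit of Kv4 channels, differed by -4.44 ± 0.20 and Kcnip3 by 2.37 ± 0.18 on the log2 scale. Shares of nuclei above 0 in each class are not given here for the partners. Their counts and differences are therefore descriptions with no test.

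Inhibitory neurons were further assigned to 4 classes by the highest of Pvalb, Sst, Vip and Lamp5, with 3 to 19 nuclei per class and pool, and a class in a pool was used only with at least 5 nuclei, which left out Vip nuclei of Het_96. Each class was compared with the mean of the other 3. Of the 65 members tested, 20 were higher and 17 lower in Pvalb neurons, where 7.21% of all 23884 genes were higher and 7.23% were lower. In Lamp5 neurons 21 were higher and 11 lower (6.67% and 7.0% of all genes), in Vip neurons 8 and 20 (5.11% and 9.44%) and in Sst neurons 6 and 7 (3.18% and 1.38%). Without members that passed the filter through 1 side of the contrast only, the counts were 19 and 15 of 59 in Pvalb, 20 and 11 of 61 in Lamp5, 8 and 16 of 59 in Vip and 6 and 5 of 61 in Sst neurons.

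Pvalb neurons, which include fast-spiking cells, had 1.79 to 4.75 RPKM of Kcns1 in the 6 pools, against a mean of 0.173 RPKM in the other classes, a log2 difference of 4.12 ± 0.35. Kcns1 was above 0 in 50.96% of Pvalb nuclei and 5.47% of nuclei of the other classes, so it passed the filter through Pvalb neurons only and the difference is a description with no test. Kcns3 had 23.8 to 64.3 RPKM and Kcnc2 61.2 to 152.8 RPKM in Pvalb neurons, with log2 differences of 2.39 ± 0.58 and 1.85 ± 0.33. Kcnc1 and Kcna1, the Kv1 subunit of axons, were also higher, by 1.53 ± 0.15 and 1.66 ± 0.16. Kcnc2 was called higher in Sst neurons as well, by 1.24 ± 0.33 (limma adjusted p = 0.0432). Its mean level was 81.9 RPKM in Sst and 103.3 RPKM in Pvalb neurons. The call of Kcns3 was lost without Het_384 (limma adjusted p = 0.0572) and with the 384-well pools alone (limma adjusted p = 0.0529).

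Members lower in Pvalb neurons included Kcnk9 and Kcnh3, with log2 differences of -5.54 ± 0.94 and -3.92 ± 0.26. Kcnk9 was listed at 0 in Het_96, WT_384 and Het_384 and had 18.1 RPKM in WT_96, so its pools spread widely and its fitted difference depends on the pseudocount. Kcnc4 was lower in Pvalb neurons (-2.97 ± 0.48), unlike Kcnc1 and Kcnc2.

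Vip neurons had 21.9 to 40.6 RPKM of Kcnt2 in 5 pools and a mean of 2.82 RPKM in the other classes, a log2 difference of 4.39 ± 0.54 (limma adjusted p = 6.84e-05). Kcnj2, a classical inward rectifier, was higher in Vip neurons too (3.14 ± 0.43). Kcnh5 (-4.18 ± 0.56), Kcnk12 (-4.02 ± 0.50) and Kcns3 (-3.51 ± 0.63) were lower, with no test for Kcnk12, which was above 0 in 6.86% of Vip nuclei and 59.6% of the others. Kcnt1 was lower in Vip neurons by -2.57 ± 0.22, with a mean of 22.6 RPKM against 124.1 RPKM in the other classes.

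Lamp5 neurons had 4.11 to 46.8 RPKM of Kcnh4 and a mean of 2.47 RPKM in the other classes, a log2 difference of 4.82 ± 0.64 (limma adjusted p = 0.000133). Kcnk13 (3.33 ± 0.43) was higher too, and so was Kcng1 (3.62 ± 0.65), with no test, as it was above 0 in 25.3% of Lamp5 nuclei and 6.99% of the others. Kcnc2 had 2.56 to 25.9 RPKM in Lamp5 neurons, lower than in the other classes by -2.79 ± 0.33 on the log2 scale, and Kcnmb2 and Kcnk10 differed by -1.69 ± 0.29 and -1.83 ± 0.57. The call of Kcnk10 was lost without any 1 of WT_96, Het_96, iTg_384 and HetiTg_384 (limma adjusted p = 0.0606 to 0.152), and in both Lamp5 and Sst neurons it was lost with no filter on low values (0.0611 and 0.0591). With the 384-well pools alone Kcnk10 differed by -1.07 in Lamp5 neurons (limma adjusted p = 0.404) and by 1.84 in Sst neurons (limma adjusted p = 0.256).

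Sst neurons had 3.10 to 7.66 RPKM of Kcnmb4, higher by 2.96 ± 0.51 (limma adjusted p = 0.00287). Kcnk10 and Kcnc4 were higher by 2.12 ± 0.57 and 2.07 ± 0.48, but Kcnk10 lost its call without any 1 pool except Het_384 and Kcnc4 without any 1 pool except WT_96 (limma adjusted p = 0.0651 to 0.201 for Kcnk10 and 0.0557 to 0.0682 for Kcnc4). Kcnq5, an M-current subunit, Kcnj2 and Kcns1 were lower, by -2.09 ± 0.28, -2.08 ± 0.39 and -1.76 ± 0.35. The values of Kcnj2 and Kcns1 carry no test, since they were above 0 in 5.28% and 3.89% of Sst nuclei against 26.3% and 21.2% of the others.

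**Figure D3:**
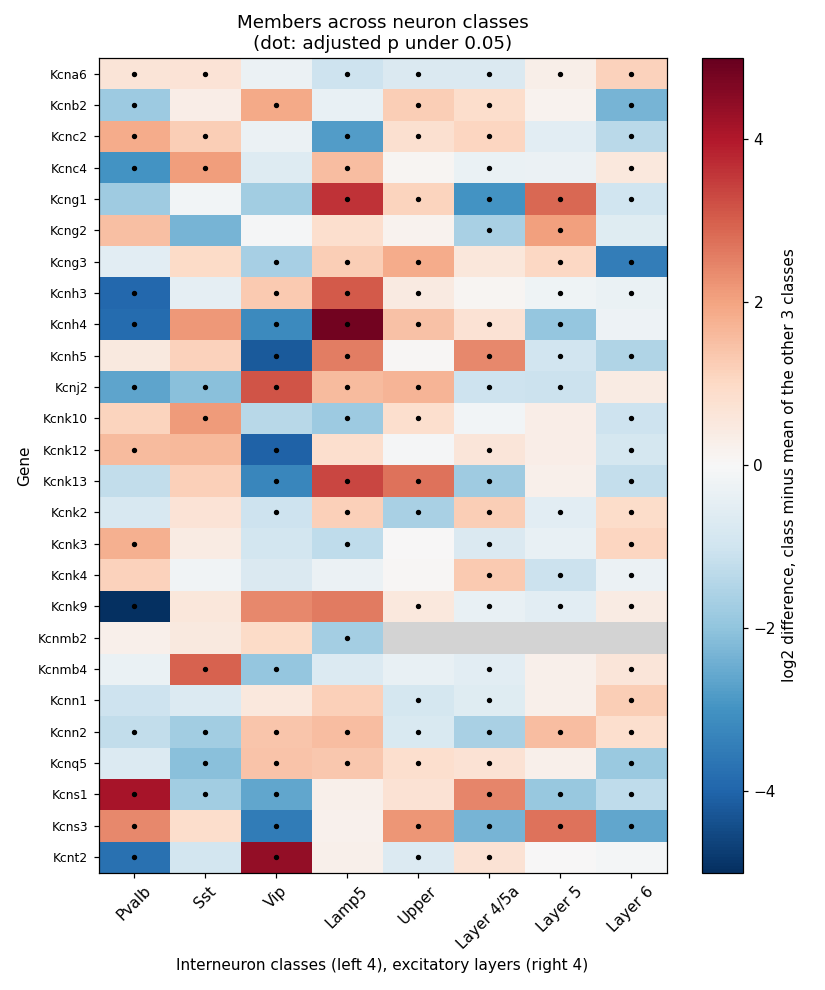
Log2 difference of each interneuron class and each excitatory layer class from the mean of the other 3 classes of its kind, for members named in the text for any class. Dots mark adjusted p under 0.05, colour runs from blue (lower) to red (higher), and grey marks a gene that was not tested. Dots of members that passed the filter through 1 side of a contrast only, such as Kcns1 in Pvalb and Kcns3 in layers 4/5a, 5 and 6, are not read as tests; Kcns1 is red in Pvalb neurons and layer 4/5a, and Kcnh4 is darkest in Lamp5 neurons.

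Excitatory neurons were assigned to 4 layer classes by 3 markers each, with 25 to 74 nuclei per class and pool. Of 64 members tested, 24 were higher and 23 lower in layer 4/5a (14.0% and 14.8% of all 24268 genes tested, 28.7% in either direction), 23 were higher and 5 lower in upper layers (10.4% and 6.92%), 12 and 21 in layer 5 (10.3% and 8.13%) and 15 and 26 in layer 6 (12.1% and 15.8%, 27.9% in either direction). Without members that passed the filter through 1 side only, the counts were 24 and 19 of 59 in layer 4/5a, 22 and 5 of 62 in upper layers, 11 and 21 of 62 in layer 5 and 15 and 23 of 60 in layer 6. The differences of such members carry no test here; they are Kcng1, Kcng2, Kcns3 and Kcnk13 in layer 4/5a, Kcnk13 in upper layers, Kcns3 in layer 5, and Kcng3, Kcns3 and Kcnk13 in layer 6.

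Layer 4/5a neurons had 46.4 to 54.5 RPKM of Kcnh5 in the 6 pools and a mean of 9.84 RPKM in the other layers, a log2 difference of 2.42 ± 0.14 (limma adjusted p = 1.56e-09). Kcns1 had 8.90 to 14 RPKM and differed by 2.46 ± 0.28, and Kcnk4 differed by 1.31 ± 0.11. Kcng1, Kcns3 and Kcnk13 were lower there, by -2.99 ± 0.33, -2.34 ± 0.40 and -1.77 ± 0.33. In upper layers Kcnk13, Kcns3 and Kcng3 were higher, by 2.70 ± 0.33, 2.22 ± 0.40 and 1.86 ± 0.23. The mechanosensitive channel Kcnk2 (-1.61 ± 0.17) and the calcium-activated channels Kcnn1 (-0.87 ± 0.14) and Kcnn2 (-0.78 ± 0.10) were lower there. Kcns3 had a mean of 1.83 RPKM in upper layers and 2.50 RPKM in layer 5. It had 0.119 RPKM in layer 4/5a and 0.098 RPKM in layer 6, so the size of its differences depends on the pseudocount.

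Layer 5 neurons had 8.41 to 20.7 RPKM of Kcng1 and a mean of 3.12 RPKM in the other layers, a log2 difference of 2.86 ± 0.33 (limma adjusted p = 9.29e-06). Kcns3 and Kcng2, both silent subunits, were higher by 2.72 ± 0.40 and 2.06 ± 0.25, and Kcnh4, Kcns1 and Kcnj2 were lower by -1.93 ± 0.12, -1.90 ± 0.28 and -1.08 ± 0.18. Layer 6 neurons had 20.6 to 24.6 RPKM of Kcna6 and differed from the other layers by 1.16 ± 0.09, with Kcnn1 (1.23 ± 0.14) and Kcnk3 (1.06 ± 0.14) also higher. Kcng3, Kcns3 and Kcnb2 were lower in layer 6, by -3.47 ± 0.23, -2.60 ± 0.40 and -2.32 ± 0.10.

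Neurons and glia were compared as a description with no test, because the cell type labels came from clusters of these same nuclei. Of 61 members above 0 in at least 10% of nuclei, 47 were at least 2-fold higher in neurons than in oligodendrocytes in all 6 pools, where 24.4% of all genes were, and 4 were at least 2-fold lower, where 7.76% were. Against microglia, 46 of 61 were at least 2-fold higher in neurons (23.7% of all genes) and 4 at least 2-fold lower (9.73%). Of the 86 members, 65 were above 0 in at least 10% of neurons, but only 19 in oligodendrocytes and 16 in microglia. Most of the 61 thus passed the filter through neurons only and had to differ, so the counts toward neurons are descriptions only. The median log2 difference of neurons from oligodendrocytes was 4.62 over the members and 0.52 over all genes, and from microglia 4.85 and 0.69. With a pseudocount of 1 in place of 0.1, these medians were 2.52 and 0.31 for oligodendrocytes and 2.97 and 0.29 for microglia. Their size therefore depends on the pseudocount. Snap25, a neuronal marker, differed by 1.66 to 6.47 on the log2 scale between neurons and oligodendrocytes and by 1.33 to 5.65 between neurons and microglia, and its part in the levels of members in glia was not tested.

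Oligodendrocytes had 163.8, 180.7, 222.96, 169.5, 189.04 and 280.5 RPKM of Kcna1 in WT_96, Het_96, WT_384, Het_384, iTg_384 and HetiTg_384, against 34.8 ± 5.28 RPKM (SD, n = 6 pools) in neurons. Kcna6 had 88.7 to 113.6 RPKM against 14.1 ± 0.900 RPKM in neurons. Kcnj10 (Kir4.1) had 14.7 to 68.1 RPKM in oligodendrocytes and a mean of 0.211 RPKM in neurons, the largest difference toward oligodendrocytes among members, with a log2 difference of -6.90 ± 0.33 (SD, n = 6 pools). The two-pore channel Kcnk13 (THIK-1) had 25.2 to 42.4 RPKM in oligodendrocytes, and Kcna2, next in level, had 17.9 ± 6.98 RPKM against 14.8 ± 5.74 RPKM in neurons. Within each of the 6 pools Kcna2 was lower in neurons, with a neuron minus oligodendrocyte log2 difference of -0.59 to -0.11.

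Microglia had 60.8, 66.2, 20.6, 36.4, 42.6 and 41.7 RPKM of Kcnk6 (TWIK-2) in the same order of pools and a mean of 0.437 RPKM in neurons. Kcnd1 had 13.3 to 42.5 RPKM, Kcnk13 11.4 to 16.3 RPKM and Kcnk7 4.43 to 12.5 RPKM, and these 4 were the members lower in neurons. Kcnk12 had 0.963 to 19.5 RPKM in microglia, and its neuron minus microglia log2 difference changed sign between pools (-2.48 to 1.16). Two-pore genes held 53.3% of the summed member level in microglia, 8.12% in oligodendrocytes and 14.7% in neurons.

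**Figure D4:**
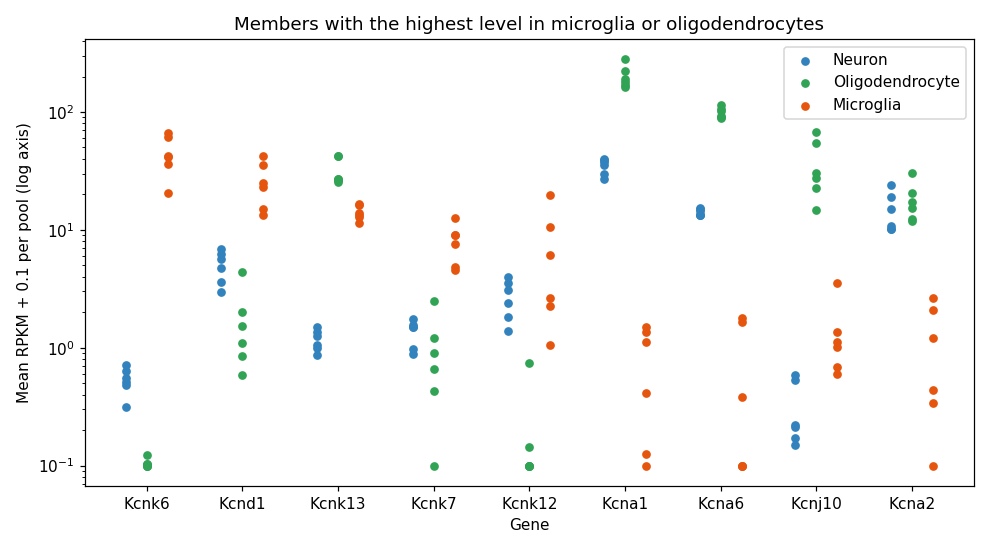
Mean RPKM + 0.1 (log axis) in each of the 6 pools for neurons, oligodendrocytes and microglia, for the members with the highest levels in either kind of glia. Kcnk6 is high in microglia, Kcnj10 in oligodendrocytes, and Kcnk13 in both, each above all neuron points.

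The comparison of Ehmt1delta/+ with wild type asked whether channel levels differed with the genotype. No member passed the test in neurons (limma on 2 pools a genotype with plate format as a term, 65 members tested, lowest adjusted p = 0.505), and 0 of all 24816 genes did. At an unadjusted p under 0.05 there were 7 members, beside 9.61% of all genes. Only 1 residual degree of freedom remained, so the absence of calls does not show that levels were alike. In excitatory neurons 2 of 64 members, in inhibitory neurons 3 of 65, in oligodendrocytes 1 of 20 and in microglia 3 of 20 had an unadjusted p under 0.05, beside 8.23%, 5.18%, 3.31% and 1.39% of all genes, and none passed adjustment. The difference of the genotype effect between excitatory and inhibitory neurons passed for 0 of 66 members and 0 of all genes, with 3 members and 5.09% of all genes at an unadjusted p under 0.05.

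Kcnu1, a pH-sensitive relative of Kcnma1, had the smallest unadjusted p. It had 1.02 and 1.53 RPKM in neurons of WT_96 and Het_96 and 1.21 and 1.77 RPKM in WT_384 and Het_384, a log2 difference of 0.53 ± 0.10 (limma adjusted p = 0.505), and 1.28 and 1.07 RPKM in iTg_384 and HetiTg_384. Kcnk6 (0.43 ± 0.12), Kcnmb4 (0.31 ± 0.11) and Kcnk4 (0.28 ± 0.13) had the next smallest p among members with higher values in Het pools, together with Kcnn1 (0.19 ± 0.10), whose sign turned when classes were weighted equally or log2 was taken per nucleus.

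Among members with lower values, Kcng2 had 0.911 and 0.380 RPKM in WT_96 and Het_96 and 1.17 and 0.813 RPKM in WT_384 and Het_384, a log2 difference of -0.77 ± 0.19 (limma adjusted p = 0.507). Kcnc1 had 24.95 and 20.03 RPKM, then 31.1 and 23.2 RPKM, in the same order, and 27.8 and 22.7 RPKM in iTg_384 and HetiTg_384. Kcnk12 and Kcnj12 differed by -0.38 ± 0.10 and -0.37 ± 0.12. The share of inhibitory nuclei among neurons was 23.3% (95% exact Clopper-Pearson interval 18.25% to 29.03%) in WT_96 and 15.8% (11.7% to 20.8%) in Het_96, and 24.9% (lower bound 20%, upper bound 30.35%) in WT_384 and 17.3% (13.25% to 22.04%) in Het_384. It was 19.3% (14.8% to 24.4%) in iTg_384 and 17.9% (13.6% to 22.9%) in HetiTg_384, closer to each other than either other pair; these are intervals that cover counting error only. Sst, the somatostatin gene of an interneuron class, had 111.3, 88.6 and 101.5 RPKM in neurons of WT_96, WT_384 and iTg_384 and 19.4, 34.4 and 44.2 RPKM in Het_96, Het_384 and HetiTg_384. Kcnc1 is one of the members higher in inhibitory neurons. Within excitatory and inhibitory neurons its Het minus WT log2 difference was -0.11 and -0.17, against -0.37 over all neurons. In the same order of classes, Kcnk4 differed by 0.14 and -0.26, and Kcnj12 by -0.02 and -0.999. Kcnu1 differed by 0.48 and 0.62, Kcng2 by -0.83 and -0.21, and Kcnk12 by -0.35 and -0.54. The part of the class share, of Sst and of the precursor markers of Het_96 in the values over all neurons was not tested.

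**Figure D5:**
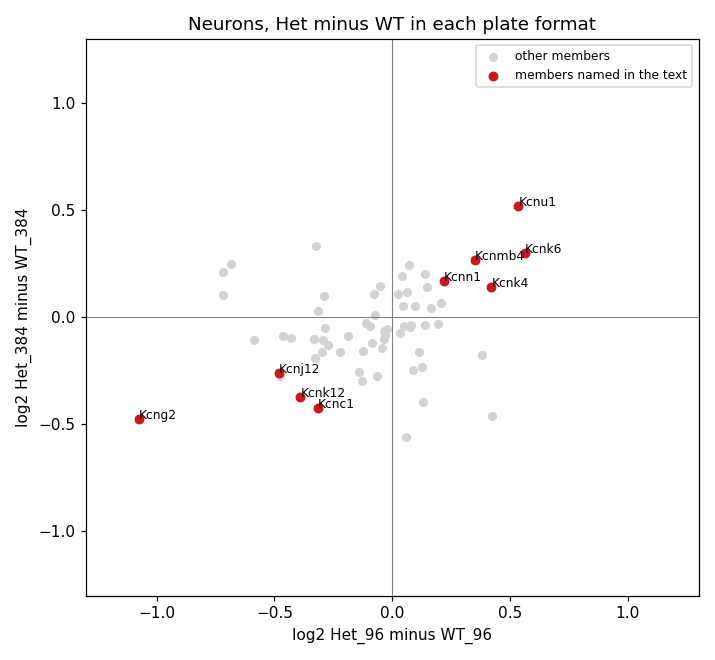
Log2 difference of Ehmt1delta/+ and wild type neuron levels on 96-well plates (horizontal) and on 384-well plates (vertical) for 65 members, with members named in the text for this comparison in red. Most members lie within 0.5 of 0 on both axes, and none passed adjustment.

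With CamKII-CreER against without, as the labels give it, no member of 65 passed the test in neurons of the 384-well pools (limma, lowest unadjusted p = 0.0573 for Kcng1), and 0 of 23511 genes did, with 0 members and 1.42% of all genes at an unadjusted p under 0.05.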

How the data were processed

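The authors sequenced single nuclei by RamDA-seq, trimmed reads, aligned them with HISAT2 2.0.4 to mm10 and counted genes with featureCounts at its defaults, and deposited RPKM values (reads scaled by transcript length and sequencing depth) for 96-well and 384-well plates. Cell type labels are the submitters'. Here symbols were matched by gene ID without version (52403 of 52636). RPKM was averaged over the nuclei of each pool and class, and limma 3.58.1 in R 4.3.3 was run on log2(mean + 0.1) over genes above 0 in at least 10% of nuclei, with Benjamini-Hochberg adjustment at 0.05. Nuclei are not replicates, so pools were, and a count test was not used on RPKM. Since labels do not say that pools were prepared separately, p-values measure only the spread between pools, which may be technical. Class fits had the pool as a term, genotype fits the plate format. Excitatory or inhibitory class needed a difference of 1 in the mean log2(RPKM + 1) of 3 markers, interneuron class a lead of 2, and layer class a lead of 0.25 in mean z-score. The members and gene lists were chosen with earlier results of these data known. Genes named were, per family, the 2 with the highest neuronal level, the 10 called with the largest difference each way between excitatory and inhibitory neurons, 3 each way per class, 5 each way by unadjusted p for genotype, and the 5 highest in each kind of glia; others named beside them (Kcnma1, Kcna1, Kcnh6 and the like) were chosen after their values were seen. A few genes that the rule takes are not reported here. The fits were tested on simulated data. The first noise model gave no recovery in the genotype design, so 2 more were added, all 3 were kept, and recovery in the genotype design ranged from no changed gene to nearly every one, depending on the noise model, so its lack of calls is not read as a lack of change. Python 3.11.15, pandas 2.3.3 and SciPy 1.17.1 were used for tables.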

Additional observations from a re-analysis of the deposited data

Results flagged for a closer look

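Kcnh3 was singled out because 1 pool lay far from the others: its excitatory minus inhibitory log2 difference was 2.86 in iTg_384 and 1.13 to 1.70 in the other 5 pools. Of the 20 members examined in this way, chance is expected to pick out about 1 in 20.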

How the results depend on the processing

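No paired analysis was possible because the replicate numbers of nuclei are accession order only and tie no pool of 1 genotype to a pool of another; classes were compared within pools, and genotypes within plate formats. With the 96-well pools only, members called between excitatory and inhibitory neurons fell to 14 higher and 6 lower in excitatory, and in the layers to 10 and 4 (layer 4/5a), 2 and 1 (layer 5), 7 and 11 (layer 6) and 4 and 0 (upper layers). With the 384-well pools only, 7 members were lower in Lamp5, 13 higher in Pvalb and 2 higher in Sst neurons. The count lower in upper layers was 8 with an intensity trend and 8 with a pseudocount of 1. The count higher in Sst was 11 with log2 taken per nucleus. Leaving out 1 pool at a time gave 1 to 6 members higher in Sst (1 without Het_96 and without HetiTg_384, 2 without WT_384 and without iTg_384), 6 to 10 lower in Lamp5 (7 without Het_96, 6 without HetiTg_384 and without WT_384) and 5 to 8 lower in upper layers (8 without iTg_384). Kcnn1 in Het against WT neurons changed sign, to -0.076 with classes weighted equally and -0.066 with log2 per nucleus. Other named members kept their direction. With the 96-well pools only, 5 named calls between excitatory and inhibitory neurons and 12 in the layers were lost. Among the 5 were Kcnh4, Kcna5 and Kcnk3 (limma adjusted p = 0.0641, 0.158 and 0.083). Among the 12 were Kcnn1, Kcnn2, Kcnk2 and Kcns3 in upper layers, Kcng2, Kcnj2 and Kcns1 in layer 5, and Kcnn1 in layer 6. The genotype fit in neurons and the transgene fit called 0 members under each alternative run; the genotype fits in excitatory and inhibitory neurons, oligodendrocytes and microglia had no alternative. Fewer pools enter the plate format and pool alternatives; for the other changes the cause was not tested. Glial nuclei on 384-well plates were shallow, which limits low members there.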
